A study of Homo sapiens with 12 samples.

Results

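The centrosome and centriolar satellite genes measured here are 57 genes, chosen by name: every gene whose symbol is CEP followed by a number, together with PCM1, AKAP9, PCNT, NIN, NINL, OFD1, LRRCC1, ODF2, ODF2L, CDK5RAP2, CNTRL, CNTROB, STIL, SASS6, PLK4, CCP110, SSX2IP, POC1A, POC1B and POC5. They were read from 58 transcript clusters of the array that carry a single gene symbol, out of 19460 such clusters. Only CEP170 had a second cluster, and the brighter one was taken. One further cluster, shared by CEP164 and the small nucleolar RNA SNORD42B, was left out.

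RNA came from U87, an established human glioblastoma cell line, which was kept in medium without phenol red and with hormone-depleted serum before treatment. Cells received 3α-THP or P4, each at 10 nM, F at 100 nM, or the vehicle V (DMSO) for 72 h, and each treatment was measured on 3 arrays, 12 in all. P4 is progesterone, 3α-THP (allopregnanolone) is its 5α-reduced metabolite, and F is finasteride, an inhibitor of the 5α-reductase that makes the precursor of 3α-THP. For V, the sample labels give 0.1% DMSO in one field and a higher share in another, which the array values cannot settle. The same 3 V arrays are the control of all 3 treatments, and the work rests on a single cell line. The labels call the 3 arrays of a treatment biological replicates, without saying how the cultures were kept apart, and p-values measure the spread between these arrays.

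Every value is a log2 signal summarised over the probes of 1 transcript cluster. Probes differ in brightness between clusters, so each gene's level is compared between treatments only, and none of the 57 genes is ranked by level against another. The 21214 clusters with a named gene were fitted together, and their median lay between 6.35 and 6.40 on all 12 arrays. As a coarse check of the label, with the same reserve on brightness, marker genes were placed among the tested clusters by percentile of their mean. Of 7 glioma and mesenchymal markers, VIM, CD44, FN1 and CHI3L1 lay at 99.3 to 99.9, and GFAP (46.2), NES (41.9) and S100B (11.2) did not stand high. The measured immune, epithelial, endothelial and oligodendrocyte markers lay between 3.92 (PTPRC) and 42.3 (KRT19), and the neuronal ones at 27.95 (SYT1), 37.25 (GAD1), 42.4 (RBFOX3) and 86.9 (SNAP25).

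The centrosome organises microtubules and is built around a pair of centrioles, cylinders of microtubules that are copied once per cell cycle. PLK4 starts the copying, STIL and SASS6 form the cartwheel on which the new centriole is assembled, and other proteins set its length. Around the centrioles lies the pericentriolar material, scaffolded by PCNT, CDK5RAP2 and CEP192, from which microtubules grow. Centriolar satellites are small cytoplasmic granules, assembled on PCM1, that carry proteins to the centrosome and to the base of the primary cilium.

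With 3α-THP, 10 of the 57 genes rose and 0 fell when a gene had to change by more than 1.5-fold at an unadjusted p below 0.05, the study's own threshold (17.5%). Over all tested clusters 0.627% rose at that threshold and 0.0519% fell. The risers were LRRCC1, AKAP9, CEP290, CEP152, CEP162, CEP135, ODF2L, CEP295, PCM1 and CEP112, with folds of up to 2.20 (LRRCC1). None of the 57 passed a Benjamini-Hochberg adjustment over the 21214 clusters (limma, smallest adjusted p = 0.376), which 1 cluster in all passed (0.00471%). In a fit that took the replicate number as a block, the smallest was 0.0731, shared by CEP112, CEP152 and ODF2L. The RNA is of whole cultures, so more RNA per cell and more cells that carry it cannot be told apart. At an unadjusted p under 0.05 and no fold, 19 of the 57 were higher and 0 lower, where 3.25% and 4.09% of all clusters were. The median log2 fold change of the 57 was 0.20, beside -0.03 over all clusters, and 48 of the 57 were above 0, a share that was 41.1% over all clusters.

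**Figure D1:**
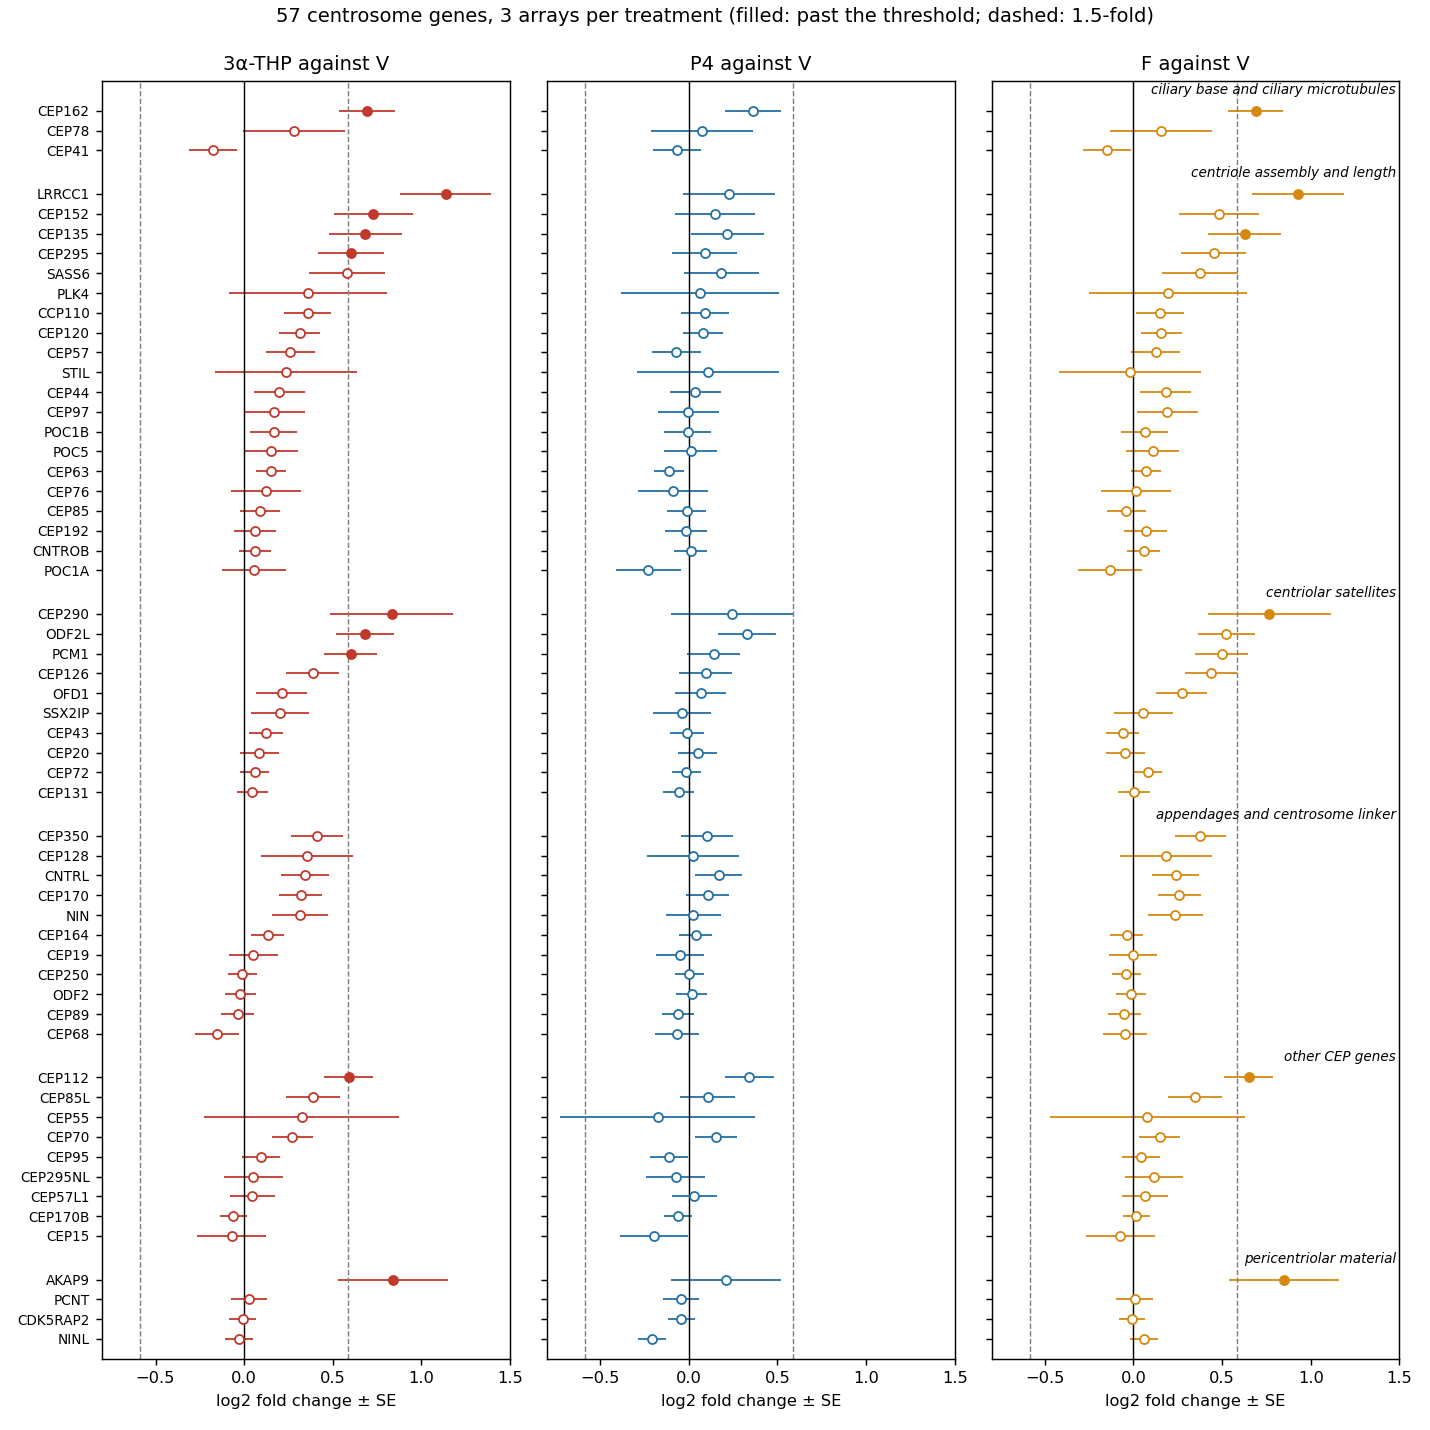
Log2 fold change of each of the 57 genes against V, with limma's SE, after 3α-THP, P4 and F (3 arrays per treatment). Filled points passed the threshold, which 10 genes did with 3α-THP, 6 with F and 0 with P4, all of them upwards; the genes are grouped by role and the dashed lines mark a 1.5-fold change.

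The 20 genes of centriole assembly and length all had a log2 fold change above 0 with 3α-THP, and 4 of them rose. LRRCC1, a leucine-rich repeat protein of the centriole's distal end, had values of 6.07, 6.99 and 6.45 on the arrays of replicates 1 to 3 with 3α-THP, against 5.38, 5.80 and 4.91 with V. The 3α-THP arrays all lay above the V arrays, and the log2 fold change was 1.14 (SE 0.26, n = 3 each, limma adjusted p = 0.376). This was the largest change among the 57 genes, and the only one that also passed a fold over 2.

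CEP152, the scaffold that recruits PLK4 to the parent centriole, had values of 6.69, 7.31 and 7.45 with 3α-THP, against 6.20, 6.69 and 6.36 with V. Its lowest 3α-THP array stood level with its highest V array, and the log2 fold change was 0.73 (SE 0.23). CEP135, a protein of the cartwheel and the proximal centriole wall, had 5.59, 6.07 and 5.95 with 3α-THP, against 5.11, 5.68 and 4.76 with V. These arrays overlapped as well, with a log2 fold change of 0.68 (SE 0.21). CEP295, which is needed for a new centriole to become a centrosome, had 6.79, 6.91 and 7.05 with 3α-THP, against 6.09, 6.68 and 6.18 with V, and its arrays did not overlap (log2 fold change 0.60, SE 0.18). The cartwheel gene SASS6 lay just outside the threshold at 0.58 (SE 0.21), and CEP112 just inside at 0.59.

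Other assembly genes stayed below the fold. CCP110, which caps the distal end of the centriole, had a log2 fold change of 0.36 (SE 0.13, limma adjusted p = 0.608) and arrays that did not overlap. CEP120, which promotes centriole elongation, was at 0.31 (SE 0.11). PLK4 was at 0.36 with an SE of 0.45, STIL at 0.24 with an SE of 0.40, and CEP192 at 0.06 (SE 0.12). Within replicate numbers 1, 2 and 3, PLK4 differed by 0.29, 0.14 and 0.65 and STIL by 0.02, 0.51 and 0.18. With the number as a block their SE were 0.14 and 0.13 (limma adjusted p = 0.291 and 0.478), and neither passed the fold.

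Of the 10 satellite genes, 3 rose with 3α-THP and all 10 had a log2 fold change above 0. PCM1, the satellite scaffold, had values of 8.14, 8.55 and 8.36 with 3α-THP, against 7.64, 8.06 and 7.55 with V, and the lowest 3α-THP array was above the highest V array. Its log2 fold change was 0.60 (SE 0.15, limma adjusted p = 0.406). PCM1 was chosen by the study for RT-qPCR on these same arrays, so its rise here is not independent evidence.

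CEP290, a protein of satellites and of the ciliary transition zone, had 5.12, 5.31 and 5.88 with 3α-THP, against 4.57, 4.65 and 4.59 with V. The V arrays were close together and the 3α-THP arrays all higher, and the log2 fold change was 0.83 (SE 0.35). ODF2L, a satellite protein related to ODF2, had 6.11, 6.10 and 6.31 with 3α-THP, against 5.24, 5.77 and 5.47 with V, a log2 fold change of 0.68 (SE 0.16). CEP126 was at 0.39 (SE 0.15). OFD1 and SSX2IP were at 0.21 and 0.20, and CEP131 and CEP72, both partners of PCM1, at 0.05 and 0.06.

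Among the 4 genes grouped under the pericentriolar material, AKAP9 alone rose. CEP192, also a scaffold of that material, was counted with the genes of centriole assembly and length. AKAP9, a large scaffold that anchors protein kinase A and microtubule nucleating complexes at the centrosome and the Golgi, had values of 7.23, 7.34 and 7.88 with 3α-THP, against 6.56, 6.73 and 6.63 with V. Its arrays did not overlap, and the log2 fold change was 0.84 (SE 0.31). The other 3 had narrow errors: PCNT was at 0.03 (SE 0.10), CDK5RAP2 at -0.01 (SE 0.08) and NINL at -0.03 (SE 0.08). The 95% interval of CDK5RAP2 was -0.17 to 0.16.

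No gene of the appendages and the centrosome linker passed the threshold with 3α-THP, out of 11. CEP350, which anchors microtubules at the centrosome, was at 0.41 (SE 0.15), the subdistal appendage gene CEP170 at 0.32 (SE 0.12) and CNTRL at 0.34 (SE 0.13), each with an unadjusted p under 0.05 in limma. The second cluster of CEP170 was at 0.39 (SE 0.13). NIN, also of the subdistal appendages, was at 0.32 (SE 0.16), while ODF2 was at -0.02 (SE 0.08), and the linker genes CEP250 and CEP68 were at -0.01 and -0.15.

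CEP162, which marks the distal end of centrioles for assembly of the ciliary transition zone, was the only riser of 3 genes of the ciliary base. It had 4.55, 4.96 and 4.58 with 3α-THP, against 4.05, 4.16 and 3.80 with V, without overlap (log2 fold change 0.69, SE 0.16). The signals of CEP162 and CEP290 were low. Their means over the 12 arrays, 4.44 and 5.07, lay below 5.505, the cut used for dim clusters. CEP41, which acts on tubulin of the ciliary axoneme, had the lowest log2 fold change of all 57, at -0.18 (SE 0.14, limma adjusted p = 0.851). Of the 9 other CEP genes, CEP112 rose, with 6.73, 6.45 and 6.60 with 3α-THP, against 6.05, 6.01 and 5.96 with V, and a log2 fold change of 0.59 (SE 0.14). CEP15 and CEP170B were at -0.07 and -0.06.

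**Figure D2:**
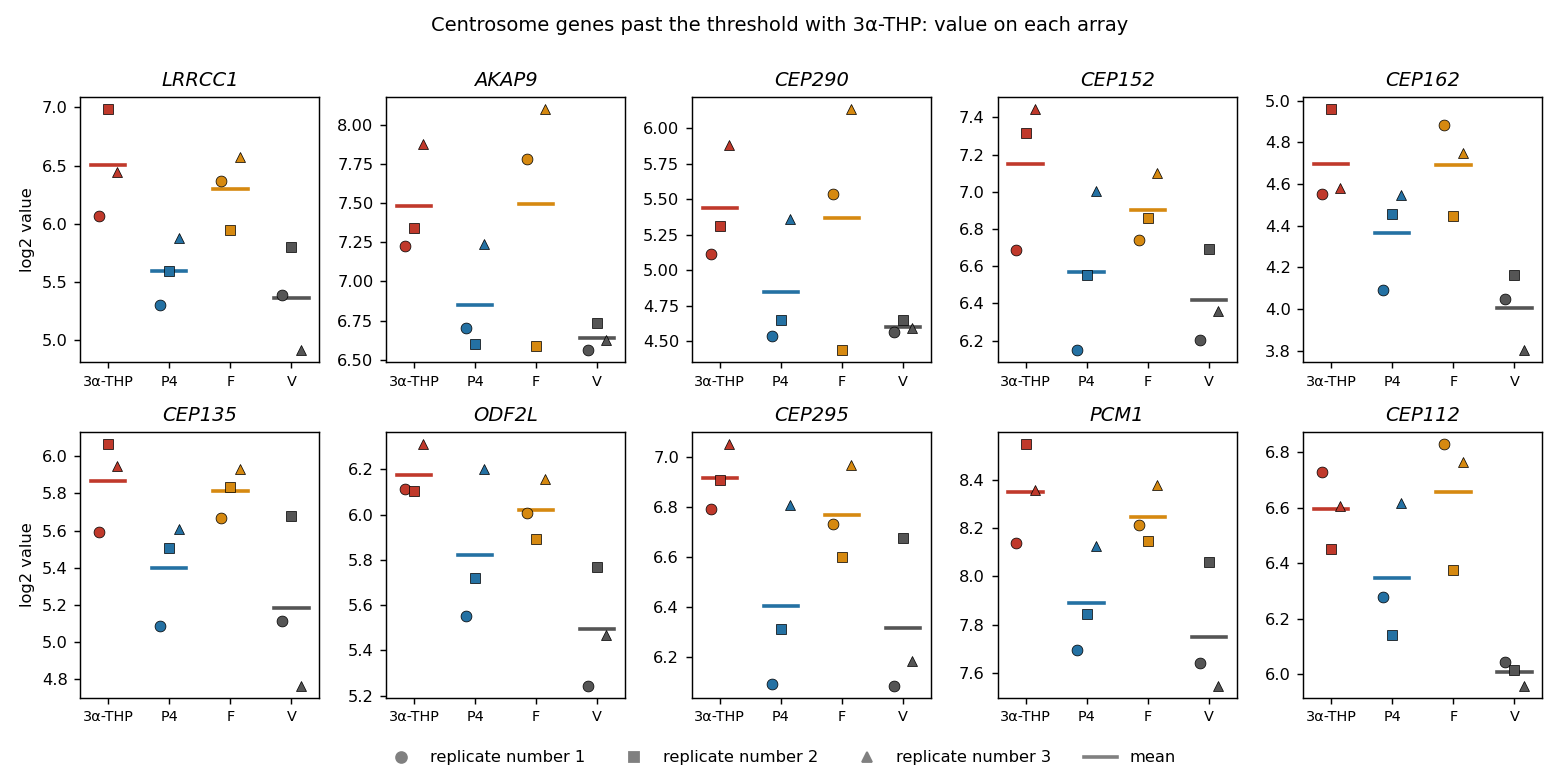
Log2 value on each of the 12 arrays for the 10 genes that passed the threshold with 3α-THP, by treatment, with the mean as a line and the replicate number as the symbol; each panel has its own axis. The 3 arrays with 3α-THP lie above the 3 V arrays in 8 of the 10 genes, CEP152 and CEP135 being the exceptions.

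Within each replicate number, the 3α-THP array was above the V array for all 10 risers at each of the 3 numbers. The risers were called on this same difference of 3α-THP and V, so this is largely given by their choice. Over the 57 genes, 12 had 3α-THP arrays that all lay above the V arrays and 1, CEP170B, had them all below, where 4.02% and 7.28% of all clusters did. Single arrays decided several of these calls. The number of risers was 6 without V replicate 1, 5 without V replicate 3 and 5 without 3α-THP replicate 3, and between 8 and 11 without any other array. Over all clusters the risers were 133 with every array, and 123, 93 and 98 in those 3 cases. LRRCC1 kept its call in each case.

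Without 3α-THP replicate 3, the log2 fold change of AKAP9 was 0.64, of CEP290 0.61, of CEP295 0.53, of CEP112 0.58 and of CEP152 0.58, all short of the fold or, for AKAP9 and CEP290, of the p. Without V replicate 3, those of PCM1 (0.50), CEP135 (0.47), CEP295 (0.54) and CEP112 (0.56) fell short of the fold, and CEP290 at 0.83 fell short on p. Without V replicate 1, PCM1 was at 0.55, ODF2L at 0.56 and CEP295 at 0.49, below the fold, and CEP290, at 0.81, missed on p. The other losses were PCM1 (0.50) and CEP162 (0.56) without 3α-THP replicate 2, CEP112 (0.52) without 3α-THP replicate 1, and CEP290 (0.86, missed on p) without V replicate 2.

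With F, 6 of the 57 genes rose and 0 fell (10.5%), where 0.382% of all clusters rose and 0.0141% fell. They were LRRCC1, AKAP9, CEP290, CEP162, CEP112 and CEP135, each of which had also passed with 3α-THP, but both comparisons use the same V arrays. None passed the adjustment (limma, smallest adjusted p = 0.833), which 0.00471% of all clusters did. The median log2 fold change was 0.11, beside -0.02 over all clusters, and was 0.06 without V replicate 1 and 0.18 without V replicate 2. In all, 8 genes had F arrays that all lay above the V arrays, where 3.6% of clusters did.

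LRRCC1 had 6.37, 5.94 and 6.57 with F, against 5.38, 5.80 and 4.91 with V (log2 fold change 0.93, SE 0.26). CEP162 had 4.88, 4.45 and 4.75 with F, against 4.05, 4.16 and 3.80 with V (0.69, SE 0.16), and CEP112 had 6.83, 6.37 and 6.76, against 6.05, 6.01 and 5.96 (0.65, SE 0.14). In these 3 genes every F array was above every V array. CEP135 had 5.67, 5.83 and 5.93 with F, against 5.11, 5.68 and 4.76 with V, with 1 F array just below the highest V array (0.63, SE 0.21).

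AKAP9 and CEP290 behaved differently on the array of F replicate 2. AKAP9 had 7.78, 6.59 and 8.10 with F, against 6.56, 6.73 and 6.63 with V (log2 fold change 0.85, SE 0.31). CEP290 had 5.53, 4.44 and 6.14 with F, against 4.57, 4.65 and 4.59 with V (0.77, SE 0.35). In both genes replicates 1 and 3 were higher than any V array, while replicate 2 was within the V range for AKAP9 and below it for CEP290. Without F replicate 3 the calls of AKAP9 (0.55), CEP290 (0.38) and CEP135 (0.57) were lost, and without F replicate 1 those of AKAP9 (0.71), CEP290 (0.68) and CEP112 (0.56). The call of CEP290 was also lost when any single V array, or P4 replicate 1 or 2, was left out, and that of CEP135 (0.42) without V replicate 3.

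For other genes the difference between F and V was smallest at replicate number 2, where the V array was high as well. Between F and V of the same number, LRRCC1 differed by 0.99, 0.14 and 1.66 for numbers 1, 2 and 3, PCM1 by 0.57, 0.09 and 0.83, and CEP295 by 0.65, -0.08 and 0.78. In each of them V replicate 2 was the highest V array and F replicate 2 the lowest F array. PCM1 had 7.64, 8.06 and 7.55 with V, against 8.21, 8.15 and 8.38 with F. CEP295 had 6.09, 6.68 and 6.18 with V, against 6.73, 6.60 and 6.97 with F. The number of risers with F was 10 without V replicate 2, 3 without F replicate 1 and 3 without F replicate 3, and 11 when the 4 arrays of number 2 were left out. Over all clusters the risers moved too, with 81 on every array and 140, 63, 35 and 212 in these cases. The 4 genes that rose with 3α-THP but missed the threshold with F had log2 fold changes with F of 0.52 (ODF2L), 0.50 (PCM1), 0.48 (CEP152) and 0.45 (CEP295).

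With P4, none of the 57 genes passed the threshold, and 0.0236% of all clusters did in either direction. In limma, at an unadjusted p under 0.05 without a fold, CEP112 (0.34, SE 0.14) and CEP162 (0.36, SE 0.16) were higher and NINL, a ninein-like protein that anchors microtubules, was lower (-0.21, SE 0.08), where 0.914% and 0.905% of all clusters were. NINL had 5.93, 5.79 and 5.79 with P4, against 6.16, 6.04 and 5.94 with V. The median log2 fold change was 0.02, beside -0.01 over all clusters, and 33 of the 57 were above 0 (43.9% of all clusters). That median turned to -0.02 without V replicate 1 or V replicate 3 and to -0.01 without P4 replicate 3. LRRCC1 was at 0.23 (SE 0.26), with a 95% interval from -0.33 to 0.78, PCM1 at 0.14 (interval -0.19 to 0.47), and AKAP9 at 0.21 (interval -0.47 to 0.88), which leaves room for a change past 1.5-fold in LRRCC1 and AKAP9.

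The 3 P4 arrays differed from each other. P4 replicate 3 exceeded the V range for AKAP9 (7.24), CEP290 (5.36), PCM1 (8.13), CEP112 (6.62) and ODF2L (6.20), and P4 replicates 1 and 2 did not, apart from CEP112. Centred on each gene's mean over the 12 arrays, the median of the 10 risers was 0.17 on P4 replicate 3, against -0.44 and -0.24 on P4 replicates 1 and 2. It was 0.11 to 0.44 on the 3α-THP arrays, 0.00 on F replicate 2, 0.29 and 0.36 on the other F arrays, and -0.51 to -0.12 on the V arrays. These medians describe genes picked on the same arrays and carry no test.

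**Figure D3:**
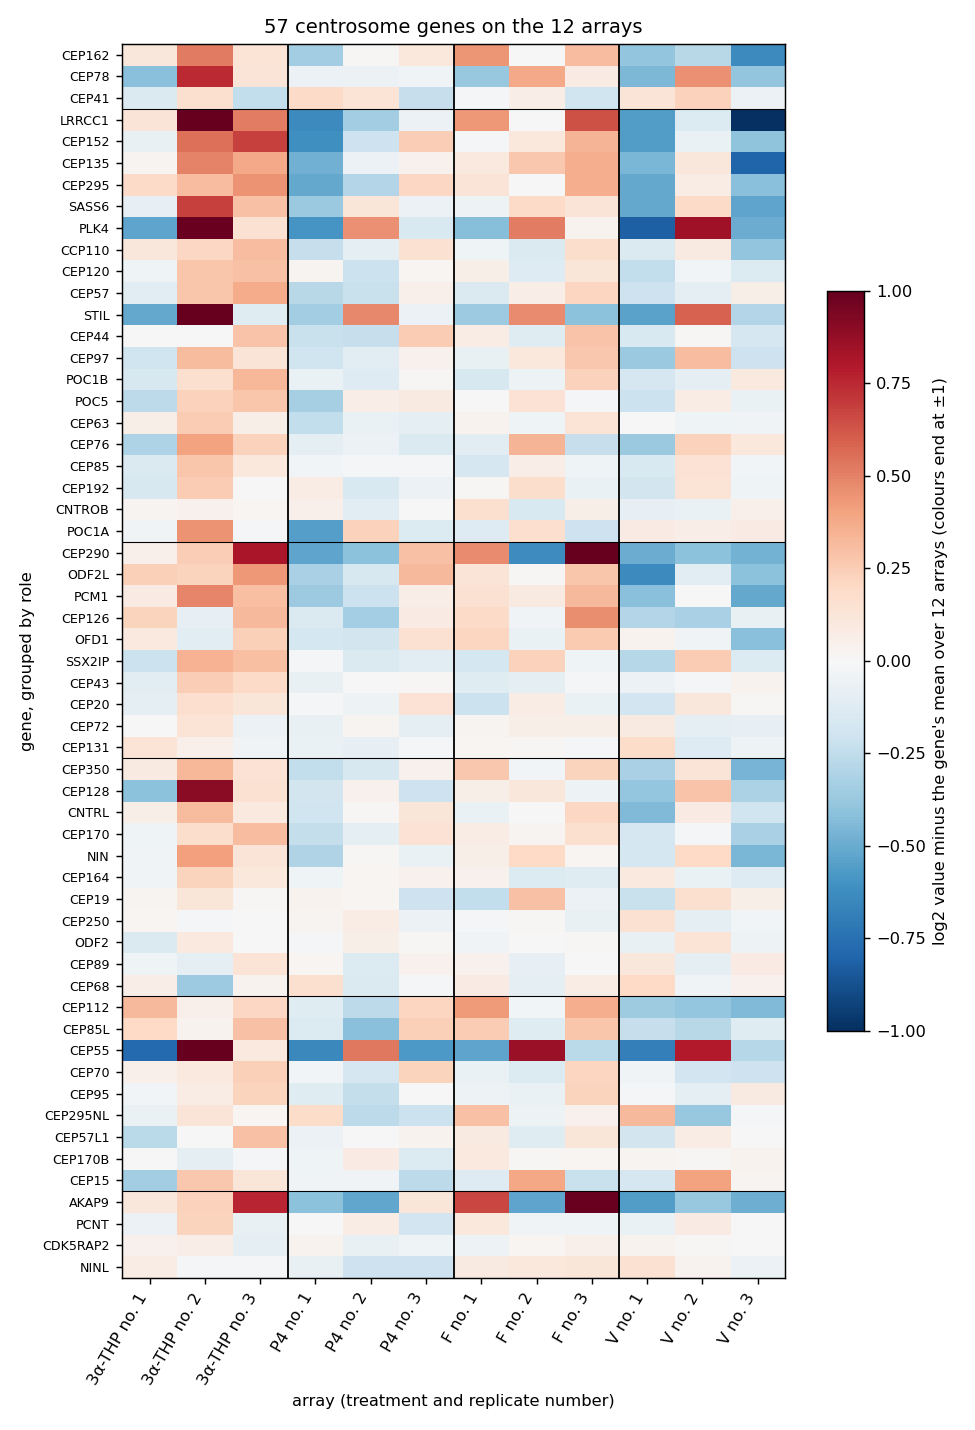
Log2 value of each of the 57 genes on each array minus the gene's mean over the 12 arrays, with genes grouped by role and arrays by treatment. The red cells of the 3α-THP columns and of F replicates 1 and 3 (median of the 10 risers 0.11 to 0.44) are paler on F replicate 2 (0.00), and P4 replicate 3 (0.17) stands apart from the other P4 columns.

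3α-THP and P4 were given at the same dose for the same time, and differ in structure in that 3α-THP is P4 reduced at its 5α position and at the ketone of carbon 3. LRRCC1 was the only gene past the threshold between them (1.75%, where 0.222% of all clusters were higher and 0.0283% lower). It had 6.07, 6.99 and 6.45 with 3α-THP, against 5.30, 5.59 and 5.88 with P4, without overlap, a difference of 0.91 on the log2 scale (SE 0.26, 95% interval 0.35 to 1.47, limma adjusted p = 0.999). With the replicate number as a block, 3 genes passed, LRRCC1 with AKAP9 (0.63) and CEP290 (0.59), where 0.278% of all clusters were higher, and their limma adjusted p were 0.476 and 0.512.

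Of the other risers, the difference between 3α-THP and P4 was 0.58 for CEP152 (95% interval 0.09 to 1.07), 0.51 for CEP295 (0.11 to 0.91), 0.47 for CEP135 (0.02 to 0.92) and 0.46 for PCM1 (0.13 to 0.79), none past the fold. PCM1 had 8.14, 8.55 and 8.36 with 3α-THP, against 7.70, 7.84 and 8.13 with P4. For CEP112 the interval, -0.05 to 0.55, held 0 and stayed below the 1.5-fold mark. Over the 57 genes the median difference was 0.18, beside -0.01 over all clusters, and 52 were above 0, a share of 44.8% over all clusters. The count at the threshold was 5 without 3α-THP replicate 1 or without P4 replicate 3, 3 without F replicate 2 and 2 without F replicate 3. Over all clusters those higher were 47 on every array, and 108, 92, 49 and 46 in these cases.

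F was given at 10 times the dose of 3α-THP and P4, so its values stand beside theirs without a comparison of potency. None of the 57 genes passed the threshold between 3α-THP and F, where 0.0566% of all clusters did, and none had an unadjusted p under 0.05 (1.22% of clusters higher, 1.07% lower). The interval of the difference was -0.35 to 0.77 for LRRCC1, -0.68 to 0.66 for AKAP9 and -0.22 to 0.43 for PCM1, so that a 1.5-fold difference lies within it for LRRCC1 and AKAP9 but not for PCM1. Between P4 and F, LRRCC1 was lower with P4 (-0.70, SE 0.26, 1.75% of the genes, where 0.033% of all clusters were lower), and with the replicate number as a block AKAP9 was too (-0.64, limma adjusted p = 0.864), where 0.0707% of clusters were lower. The count was 0 without P4 replicate 1 or F replicate 3, where LRRCC1 was at -0.56 and -0.57, and it was 2 when P4 replicate 3 was left out and 3 when F replicate 2 was. Over all clusters those lower were 7 on every array, 11 and 4 in the first 2 cases, and 54 and 61 in the last 2.

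The replicate number moved some centrosome genes more than any treatment did. For PLK4, STIL and CEP55, a protein of the midbody in cell division, 86.8% to 87.9% of the spread over the 12 arrays lay between replicate numbers and 4.05% to 6.35% between treatments. PLK4 averaged 5.46, 6.75 and 5.93 on the 4 arrays of numbers 1, 2 and 3, STIL 7.02, 8.12 and 7.24, and CEP55 6.36, 7.94 and 6.76. Number 2 was thus the highest in each, whichever treatment the cells received. For the 10 risers, treatment held a median of 60.7% of the spread and number 15.9%; these genes were picked for a treatment difference on the same arrays. For the other 47 genes these medians were 18.4% and 42.3%.

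**Figure D4:**
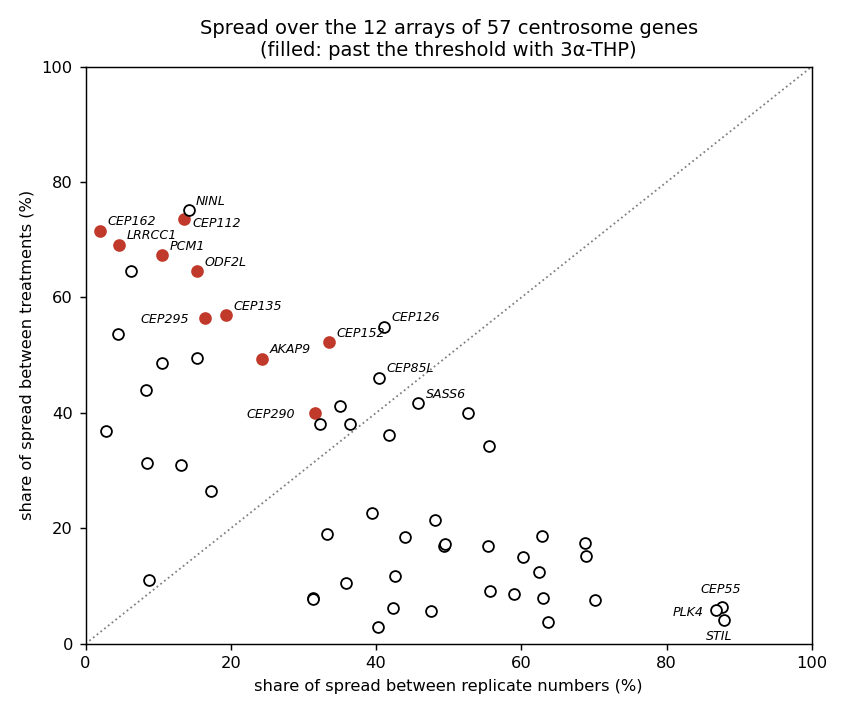
Share of each gene's spread over the 12 arrays that lay between treatments (vertical, %) against the share between replicate numbers (horizontal, %), with 1 point per gene. The 10 risers with 3α-THP (filled) lie above the dotted line of equal shares, while PLK4, STIL and CEP55 lie at the far right, near 87%.

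Over the 12 arrays PCM1 followed LRRCC1 (Pearson r = 0.98), CEP135 (0.96), CEP350 (0.95) and CEP295 (0.94) most closely of all 56 other genes. Pairs among the 10 risers correlated at a median of 0.81 (45 pairs), and pairs among the other 47 genes at 0.24 (1081 pairs). These values describe arrays that share treatments, replicate numbers and normalization. The 10 risers were picked for a treatment difference on these same arrays, so a higher correlation among them follows in part from that choice.

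Many centrosome proteins are long coiled coils encoded by long genes, and the genomic span of a gene moved with its change over the array as a whole. The 10 risers had a median span of 88.7 kb, the other 47 genes 53.3 kb, and all clusters with 1 gene 24.1 kb. Of genes of 100 kb and more, 4 of 16 centrosome genes rose with 3α-THP, beside 1.42% of all. From 30 to 100 kb, 6 of 34 rose, beside 1.07% of all, and under 30 kb 0 of 7, beside 0.202%. When the trend with span was removed from each array, 7 genes rose with 3α-THP, and CEP112 (0.56), CEP295 (0.58) and PCM1 (0.57) fell just short of the fold. With F, 6 genes rose. Of the 19426 clusters in that fit, 121 rose with 3α-THP and 68 with F.

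**Figure D5:**
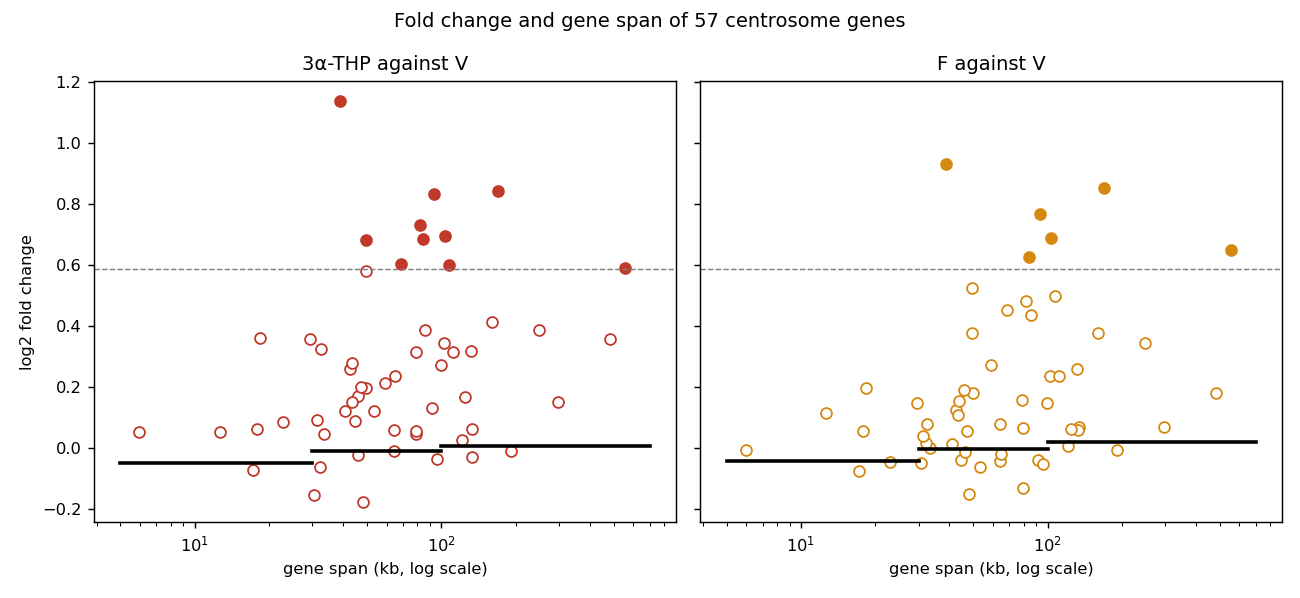
Log2 fold change against V of the 57 genes, after 3α-THP and after F, by genomic span (kb, log scale), with filled points for genes past the threshold and a dashed line at 1.5-fold. The black lines are the medians of all clusters with 1 gene under 30 kb, from 30 to 100 kb and from 100 kb (-0.05, -0.01 and 0.01 with 3α-THP), below most centrosome genes.

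The promoters of 4 risers are shown, as the 250 bases before the RefSeq transcription start on build GRCh38.p14, to set side by side the upstream sequences of genes that rose in the same arrays. Capitals mark the core of the cyclic AMP response element (TGACG), the CCAAT box and the cell cycle homology region, CHR (TTTGAA or TTCGAA), an element of cell cycle promoters, each on either strand.
CEP295 (chr11:93661432-93661681, plus strand): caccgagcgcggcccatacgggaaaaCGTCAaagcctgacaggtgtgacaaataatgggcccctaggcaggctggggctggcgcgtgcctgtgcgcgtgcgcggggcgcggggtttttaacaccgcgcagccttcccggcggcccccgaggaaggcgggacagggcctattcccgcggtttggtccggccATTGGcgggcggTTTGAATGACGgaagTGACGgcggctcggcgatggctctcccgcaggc
CEP152 (chr15:48811070-48811319, minus strand): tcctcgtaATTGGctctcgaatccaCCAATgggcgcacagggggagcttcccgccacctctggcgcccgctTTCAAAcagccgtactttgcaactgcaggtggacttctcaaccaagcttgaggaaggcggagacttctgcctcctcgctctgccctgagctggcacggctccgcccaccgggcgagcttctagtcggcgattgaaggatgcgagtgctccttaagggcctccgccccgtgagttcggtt
CEP290 (chr12:88142089-88142338, minus strand): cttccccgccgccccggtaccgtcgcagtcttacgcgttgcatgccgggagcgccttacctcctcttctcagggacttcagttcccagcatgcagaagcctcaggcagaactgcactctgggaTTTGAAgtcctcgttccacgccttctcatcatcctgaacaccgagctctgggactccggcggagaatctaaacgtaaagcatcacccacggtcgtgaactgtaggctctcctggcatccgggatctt
AKAP9 (chr7:91940612-91940861, plus strand): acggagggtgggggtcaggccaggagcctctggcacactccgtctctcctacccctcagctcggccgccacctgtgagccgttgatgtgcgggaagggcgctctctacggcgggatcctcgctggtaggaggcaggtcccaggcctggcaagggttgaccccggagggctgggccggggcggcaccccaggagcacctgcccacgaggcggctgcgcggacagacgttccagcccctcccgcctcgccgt

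CEP295 held 3 of the CRE cores, 1 CCAAT box and 1 CHR, CEP152 had 2 CCAAT boxes and 1 CHR, CEP290 had 1 CHR, and AKAP9 held none of these letters. Of the 57 genes, 50 matched a promoter, 8 of them risers. The CRE core was in 12 of the 50 (24%), beside 21.6% of 27305 promoters of all genes, and the CCAAT box was in 23 (46%), beside 33%. The CHR was in 7 (14%), beside 14.6%. Of the 8 risers, 2 held the CRE core, 4 the CCAAT box and 3 the CHR, and the last 3 are the CEP genes shown. The matched risers not shown, CEP112, CEP135, CEP162 and ODF2L, held no CHR, so the printed promoters make it look more common than it was. The full cyclic AMP response element TGACGTCA, which holds the core, was in 0 of the 50 (beside 1.75%), the C/EBP motif TTGCNNAA in 4 (8%, beside 9.12%) and the palindromic NRF1 motif in 1 (2%, beside 1.13%), and none of the 8 risers held any of these. These are matches of letters, not measured sites, and the arrays do not bear on which factors bind.

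Genes that work beside these were taken from 6 lists written from general knowledge. With 3α-THP, 5 of their 96 measured members rose and 0 fell, where 0.627% of all clusters rose. ROCK1, a kinase that acts on actomyosin and on centrosome separation, rose by 0.91 (SE 0.19), 1 of 12 genes of the linker and of separation, and was also chosen by the study for RT-qPCR. Of 21 other satellite genes, PIBF1 (0.70, SE 0.16) and CCDC18 (0.72, SE 0.20) rose, and of 26 other centriole and appendage genes, ANKRD26 of the distal appendages (0.70) and ASPM of the spindle poles (1.34, SE 0.51) did. The 3α-THP and V arrays overlapped for ASPM. None of the 96 passed the adjustment with 3α-THP (limma, smallest adjusted p = 0.376), which 0.00471% of all clusters did. With F, ROCK1 (0.80), PIBF1 (0.62) and ANKRD26 (0.59) rose, where 0.382% of all clusters did. ASPM (0.86, SE 0.51) was added with the replicate number as a block (limma adjusted p = 0.438).

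None of the 10 measured genes of the gamma-tubulin ring complex, which nucleates microtubules, passed the threshold with 3α-THP, P4 or F, and neither did any of 7 augmin genes or of 20 centrosome kinases and spindle pole genes. At the shares of all clusters given above, lists of this size hold few or no calls, and nothing is read from these zeros. In the ring complex MZT2A had the largest difference with 3α-THP, at -0.28 (SE 0.09). The median log2 fold change with 3α-THP was 0.03 in the ring complex, -0.02 in augmin, 0.13 in the kinases and spindle pole genes, 0.01 in the linker and separation genes, and 0.12 in each of the other satellite and centriole lists.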

How the data were processed

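Total RNA of U87 cells was hybridised to 12 Affymetrix Human Gene 1.0 ST arrays. The deposited values are log2 signals, summarised by the authors for each transcript cluster in Affymetrix Expression Console 1.4 and normalized between arrays. Of 33297 clusters, 12083 carry no gene and 1754 several. Gene names came from GEO's platform annotation. No counts or depth exist for arrays, and 3 arrays per treatment limit the precision.

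For the 21214 clusters with a gene, limma 3.58.1 (R 4.3.3) estimated a mean for each treatment with variances moderated across clusters, and the 6 pairwise differences were taken. Genes were called at the study's threshold, and p was also adjusted (Benjamini-Hochberg) across the 21214 clusters. SE are limma's. Arrays of the same replicate number deviated together, with a median r of 0.40 over 18 pairs (0.13 to 0.63). Over 36 pairs of different numbers the median was -0.24 (-0.60 to 0.23). Deviations were taken from the treatment means, which by itself lowers r between different numbers. The number was therefore also fitted as a block. The study's methods describe an unpaired analysis, which is the one reported. The fit was tested on simulated data.

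The genes, the role groups, the 6 lists and the motifs were chosen with earlier results of these data known. Genes named are those past the threshold, those with the smallest p and the highest and lowest changes in each comparison, and core centriole and pericentriolar genes; CEP131, CEP72, OFD1, SSX2IP, CEP126, CEP350, CEP170, CNTRL, CEP120 and CEP250 were named in places outside that rule after their values were seen. Levels of the 57 genes were not ranked against each other, since brightness differs between clusters, and percentiles of markers are coarse for the same reason. Genomic spans and promoters came from RefSeq (GRCh38.p14); the array files name no build. Protein lengths were not used here. Alternatives changed the block, the arrays, the test, the normalization, the clusters tested, the variance prior, array weights and the threshold, and left out each array in turn.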

Additional observations from a re-analysis of the deposited data

How the results depend on the processing

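The numbers below count genes of the 57 past the threshold, which were 10 with 3α-THP, 0 with P4 and 6 with F against V, 1 between 3α-THP and P4, 0 between 3α-THP and F, and 1 between P4 and F. With a fold over 2, the count was 1 with 3α-THP, 0 with F, 0 between 3α-THP and P4 and 0 between P4 and F. Over all clusters, 24 were higher with 3α-THP, 6 with F, 3 between 3α-THP and P4 and 0 between P4 and F. With an adjusted p and no fold it was 0 in all of these comparisons. With an unadjusted p and no fold it was 19 with 3α-THP, 3 with P4 and 12 with F. It was 9 between 3α-THP and P4 and 5 between P4 and F. All 5 genes between P4 and F were lower, as was 1 with P4, and all others were higher. Over all 21214 clusters, this rule called 690 higher and 867 lower with 3α-THP, 194 and 192 with P4, and 548 and 447 with F. Between 3α-THP and P4 it called 387 higher and 454 lower, and between P4 and F 352 and 256.

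The replicate number as a fixed block gave 3 genes between 3α-THP and P4 and 2 between P4 and F, and as a random block 2 and 2. Over all clusters, 59 were higher between 3α-THP and P4 with the fixed block and 54 with the random one, beside 47 without a block. Between P4 and F, 15 were lower with either block, beside 7. The block changed no other call in the 6 comparisons' counts (10 with 3α-THP and 6 with F). Fitting the 2 groups alone gave 3, cyclic loess 2 and array weights 4 between 3α-THP and P4, and array weights gave 2 between P4 and F. Over all clusters these gave 50, 51 and 65 higher between 3α-THP and P4, and array weights 24 lower between P4 and F. Fitting the 2 groups alone without moderated variances gave 3 genes with F and 8 with 3α-THP, and over all clusters 28 and 103 higher. That fit is not the study's own one-way analysis of variance, which was not rerun. With dim clusters left out, 8 of 51 genes rose with 3α-THP and 4 with F, where 117 and 67 of 14143 clusters did. Without the 4 arrays of number 2 there were 11 genes with F and 3 between P4 and F, and the median log2 fold change with P4 was 0.13. Over all clusters, 212 were then higher with F and 48 lower between P4 and F. The cause of these shifts was not tested. Under array weights LRRCC1 passed the adjustment with 3α-THP (limma adjusted p = 0.0437). That was its lowest value over all settings, and the highest was 0.889. Array weights raised calls over all clusters too, with 197 higher at the threshold, beside 133 in the reported fit. How many clusters passed the adjustment there is not given here.

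Leaving out 1 array at a time gave 5 to 11 genes with 3α-THP, 3 to 10 with F, 1 to 5 between 3α-THP and P4, and 0 to 3 between P4 and F. Counts over all clusters moved as well, as given above. Medians of the log2 fold change ran from 0.0709 to 0.313 with 3α-THP, from 0.11 to 0.30 between 3α-THP and P4, from 0.0147 to 0.156 between 3α-THP and F, from 0.0571 to 0.181 with F, and from -0.0217 to 0.0851 with P4. Of the 18 calls of single genes, 184 of 216 values without 1 array and 238 of 284 under other settings stayed past the threshold. The 216 include arrays of treatments outside the comparison, whose loss leaves the fold change as it was. The 284 include a p without a fold, which cannot lose a call. Both shares therefore overstate how stable the calls were. No called gene changed sign. The trend with genomic span was chosen after seeing the data, in place of a trend with protein length, which was not run.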
